A study of Homo sapiens with 6 samples.

Results

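FAT1, FAT2, FAT3, FAT4, DCHS1, DCHS2, CELSR1, CELSR2 and CELSR3 encode the giant cadherins, membrane proteins whose extracellular parts carry long runs of cadherin repeats. These 9 genes were described across the 3 RNA-seq libraries and the m6A peak list of a METTL3 study in TE-10, an established line derived from a human esophageal squamous carcinoma. They are 9 of 18249 genes in the expression table and hold 43 of 15940 peaks. The family was chosen by peak number, since FAT1 and FAT2 are among the genes with most peaks, so peak counts are given below as a description with no test. Expression values were not part of that rule. The members and the gene lists below were, however, chosen with earlier results of these data known.

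The knockdown groups were 2 libraries of TE-10 cells carrying a stable short hairpin RNA against METTL3, named knockdown 1 and knockdown 2 after the hairpin numbers in their titles. The control was 1 library of TE-10 cells with normal METTL3, and the labels do not say whether these cells carried a hairpin of their own or whether the knockdown cells were clones. METTL3 is the catalytic subunit of the enzyme that writes N6-methyladenosine (m6A), a methyl mark on adenosines of mRNA. The peaks came from methylated RNA immunoprecipitation of cells with normal METTL3, with 2 immunoprecipitated libraries, made with m6A antibodies of different catalogue numbers, and 1 input, and m6A peaks of knockdown cells were not analysed here. Nothing in the labels says whether libraries came from separate cultures, and any spread between them may be technical.

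Fat and Dachsous cadherins bind each other across neighbouring cells. In Drosophila this pair, tuned by the kinase Four-jointed, orients cells in the epithelial plane and feeds into the Hippo growth pathway. The CELSR proteins are the vertebrate relatives of Drosophila Flamingo. They join cadherin repeats to an adhesion G-protein-coupled receptor and act with Frizzled and Van Gogh proteins in planar cell polarity. FAT1 is often mutated in squamous carcinomas, where it is regarded as a tumour suppressor. m6A is found mostly near stop codons and in long internal exons, and it is read by proteins that alter RNA decay, splicing and translation.

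Promoter letters are shown for FAT1 and FAT2, whose peak numbers led to the choice of the family, and for CELSR2, a member of the other branch whose knockdown values both lay below the control. These 3 were picked with their values known. The windows, from RefSeq, are the 250 bases before the RefSeq start in GRCh38.p14, written 5′ to 3′, with GC boxes in capitals. FAT1 lies at chr4:186726697-186726946 on the minus strand, FAT2 at chr5:151591332-151591581 on the minus strand and CELSR2 at chr1:109249289-109249538 on the plus strand.
FAT1: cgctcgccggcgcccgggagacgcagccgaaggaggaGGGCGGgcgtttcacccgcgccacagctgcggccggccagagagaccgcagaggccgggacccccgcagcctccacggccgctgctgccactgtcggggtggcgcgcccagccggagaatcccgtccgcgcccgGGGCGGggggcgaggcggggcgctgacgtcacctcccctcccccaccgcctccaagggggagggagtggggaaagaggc
FAT2: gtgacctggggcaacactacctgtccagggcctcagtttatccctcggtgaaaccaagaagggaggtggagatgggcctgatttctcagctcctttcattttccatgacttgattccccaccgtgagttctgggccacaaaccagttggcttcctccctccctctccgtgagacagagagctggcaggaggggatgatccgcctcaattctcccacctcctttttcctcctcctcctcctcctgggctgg
CELSR2: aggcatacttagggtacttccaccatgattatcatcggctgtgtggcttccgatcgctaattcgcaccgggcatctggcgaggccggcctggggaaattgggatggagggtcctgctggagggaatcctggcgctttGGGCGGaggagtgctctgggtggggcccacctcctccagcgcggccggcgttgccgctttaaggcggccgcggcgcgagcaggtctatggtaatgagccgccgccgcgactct

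The FAT2 window differs from the other windows in base composition. It holds 4 CpG dinucleotides, against 32 in FAT1 and 23 in CELSR2, with a median of 11 over all 35116 RefSeq windows. Its GC content is 56.8%, against 78.0% in FAT1 and 64.4% in CELSR2. The GC box GGGCGG, read on both strands, occurs 0 times in the FAT2 window, 2 times in FAT1 and 1 time in CELSR2, and 42.6% of all windows hold it. The TEAD-binding motif GGAATG and the TATA box TATAAA were absent from all 3 windows, and they occur on either strand in 11.9% and 10.7% of all windows. CELSR2 has 1 CCAAT box (CCAAT, found in 32.0% of windows). FAT1 has a second RefSeq start whose window also holds 32 CpG dinucleotides and 3 GC boxes. CELSR3, with 25 CpG dinucleotides and 2 GC boxes, and DCHS2, with 23 and 3, are near the CELSR2 window in CpG number. A match is a description of these letters only.

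All 9 members carried at least 1 peak, and 8 of the 9 carried 2 or more. FAT1 had 14 peaks, which only NPIPL1 (18), a gene of a family of near-identical copies, exceeded among 8906 genes with a peak. FAT2 had 7, a number shared by 33 genes and exceeded by 40, and 55.3% of genes with a peak had a single one. CELSR3 had 6 peaks, FAT4 had 4, DCHS1, CELSR1 and CELSR2 had 3 each, FAT3 had 2 and DCHS2 had 1. The genes next to FAT1 in this order are AHNAK2 (13), AHNAK (12), SHANK2 (12) and LOC541471 (12). LATS2, a kinase of the Hippo pathway, is among the genes that have 7 peaks like FAT2. The peak list gives neither a score nor an enrichment, so strength could not be compared.

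**Figure D1:**
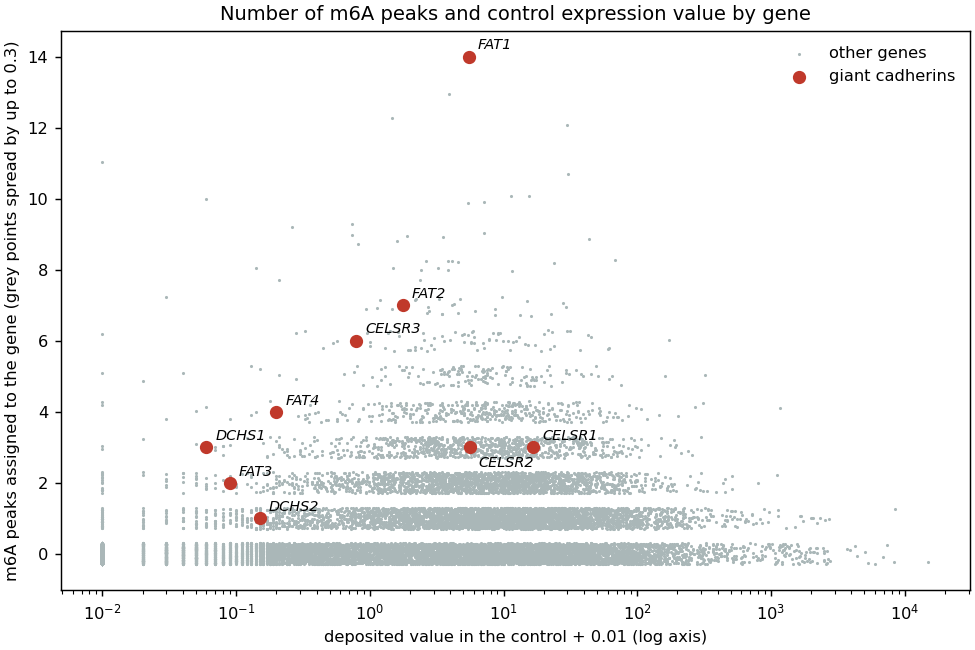
Number of m6A peaks (vertical axis) against the deposited value in the control library plus 0.01 (horizontal axis, log scale) for each gene of the expression table, with the 9 giant cadherins in red. FAT1 lies at 14 peaks and a control value of 5.49, and DCHS1 at 3 peaks and a control value of 0.05.

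In total length, peaks covered 5564 bases of FAT1, and 4 genes had more bases under peaks. CELSR2 comes next in the family, at 3368 bases over 3 peaks, followed by CELSR3 at 3029 bases over 6 peaks and CELSR1 at 2961 bases over 3 peaks. FAT2 was at 2586, FAT4 at 2015, DCHS1 at 1172, FAT3 at 789 and DCHS2 at 200. The order by covered bases therefore differs from the order by peak number. CELSR1 and CELSR2 had few, wide peaks, with median widths of 898 and 752 bases. FAT1 had many, with a median width of 294.5 bases, near the 316 bases over all peaks. The widest peak of the family, 2116 bases in CELSR2, is wider than 99.9% of all listed peaks, and the widest of CELSR1, at 1531 bases, is wider than 99.4%.

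Coding exons held most peaks of the family. Of the 43 peaks, 36 were annotated to coding exons, or 83.7% (95% Wilson interval 70.0% to 91.9%), against 34.1% of all 15940 peaks (33.3% to 34.8%). Each of the 9 genes had at least 1 peak in a coding exon. The 3′ UTR held 3 peaks, 1 each in FAT2, CELSR1 and CELSR2, or 6.98% (2.4% to 18.6%), against 21.5% of all peaks (20.8% to 22.1%). No member peak was in a 5′ UTR, where 11.6% of all peaks lay, and 2 were in introns of CELSR3. The remaining 2 lay upstream of the annotated start, in FAT1 and FAT4. FAT1 and FAT2, whose peak numbers led to the choice of the family, held 13 and 6 of the 36 coding-exon peaks. The comparison with all peaks is therefore a description with no test. Intervals cover counting error only, and peaks of 1 gene share a transcript and are not independent. Coding lengths were not used here, so the share of peaks is not corrected for the length of coding sequence.

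**Figure D2:**
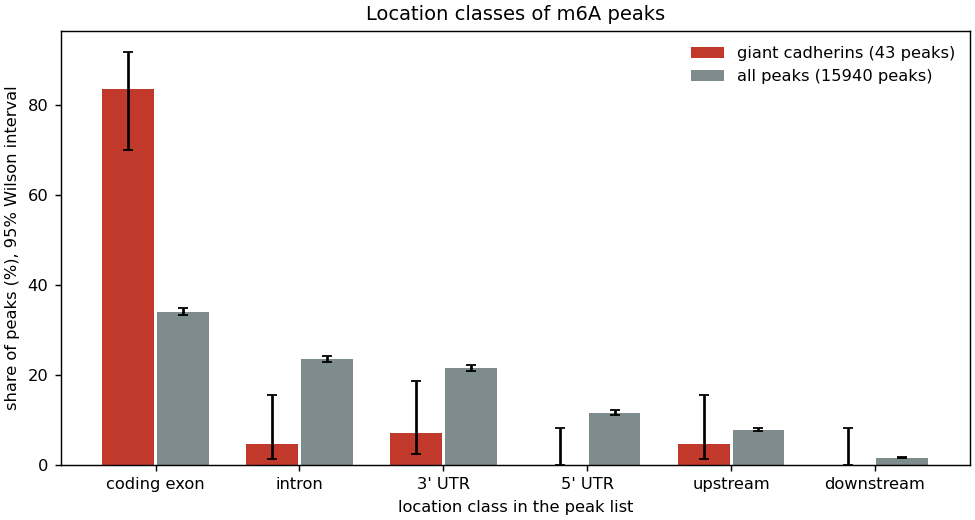
Share of m6A peaks in each location class of the peak list, in percent, for the 43 peaks of the giant cadherins (red) and all 15940 peaks (grey), with 95% Wilson intervals. Coding exons hold 83.7% of the giant cadherin peaks and 34.1% of all peaks.

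Along FAT1, a cadherin known to regulate actin at cell edges, peaks formed 2 dense groups. The larger held 6 coding-exon peaks within 3831 bases, at chr4:187538919-187542749 on the minus strand, between 102449 and 105932 bases from the annotated start along the genome. The other held 3 coding-exon peaks within 3130 bases, at chr4:187627891-187631020, and contains the widest FAT1 peak, of 1055 bases. Another 4 coding-exon peaks lay farther from the start than the larger group, the last of them 134971 bases from it. The upstream peak lay at -979 bases from the start annotated in the peak list, on its upstream side. FAT1 has a second RefSeq start, and the promoter windows above are in GRCh38 coordinates. The peak was therefore not placed against those windows or starts, and it may lie within another transcript of the gene. Coordinates are those of the peak list. Its build is not taken to be hg38, since only 5 of the 43 peaks, those of DCHS1 and FAT3, lie within the span of their gene in RefSeq's GRCh38 annotation.

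FAT2, a member known from squamous epithelium and cerebellar granule cells, had peaks at both ends of the gene. Its peaks nearest the start lay in coding exons, 1453 and 2976 bases from it, at chr5:150946723-150947382 and chr5:150945342-150945717. Those farthest from the start were a coding-exon peak at 62889 bases and a 3′ UTR peak at 63659 bases. CELSR1 and CELSR2 shared a layout of 2 coding-exon peaks close to the start and 1 peak in the 3′ UTR. In CELSR1 the peaks near the start lay at 1485 and 2859 bases, at chr22:46929760-46932347, and in CELSR2 at 742 and 2216 bases, at chr1:109793133-109795914. CELSR3, the third Flamingo relative, had no peak within 5000 bases of the start annotated in the peak list. Distances from other starts of the gene were not computed, so a different layout from CELSR1 and CELSR2 is not established. Its 6 peaks fell into a group of 4 at chr3:48696610-48702355 and a pair at chr3:48675504-48678036.

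FAT4, which pairs with DCHS1 as receptor and ligand in mice, had peaks on both sides of its start, at -869, 791 and 1676 bases, and another at 175244 bases. DCHS1 had its 3 peaks within 1611 bases at chr11:6643799-6645409, all in coding exons and between 31765 and 32979 bases from the start. FAT3, a member studied in neurons of the mouse retina, had 2 coding-exon peaks, 514862 and 538732 bases from the start on chromosome 11. DCHS2 had a single coding-exon peak of 200 bases, at chr4:155412139-155412338 and 692 bases from the start. That is the smallest width in the family, shared with a DCHS1 peak, and no listed peak is narrower. In all, 9 of the 43 peaks in 5 of the 9 genes lay within 5000 bases downstream of the start annotated in the peak list. These counts depend on the transcript used there for each gene.

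**Figure D3:**
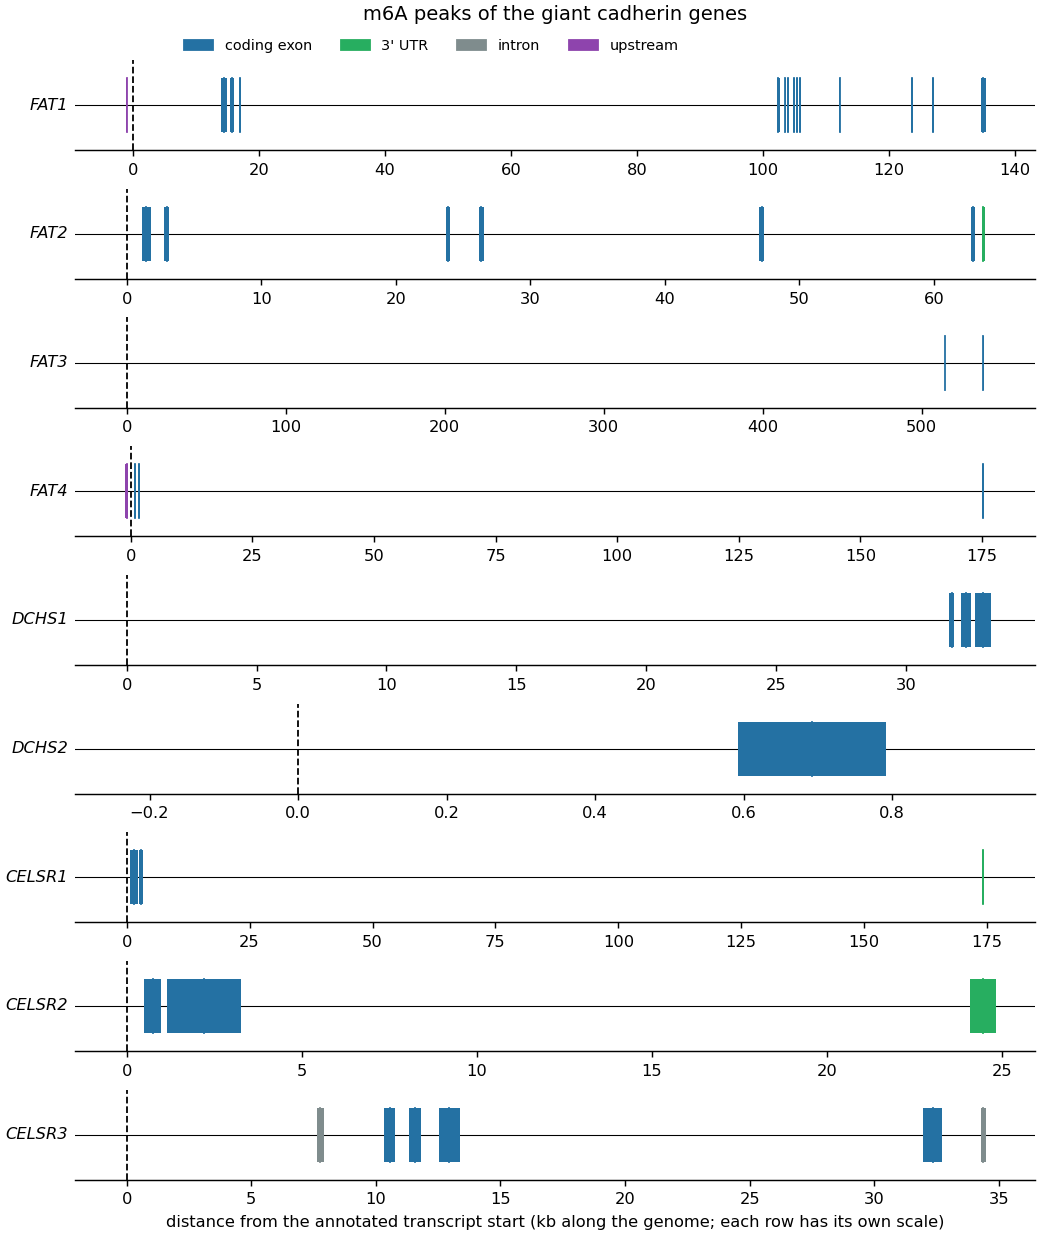
Position of each m6A peak along the 9 genes, as distance in kb from the annotated transcript start (dashed line), with colours for the location class. Each row has its own scale, blocks are drawn to scale with a minimum line width, and FAT1 shows its groups of 3 and 6 coding-exon peaks.

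Peaks were also listed for members with expression values near 0. FAT3, FAT4, DCHS1, DCHS2 and CELSR3 were under 1 in the control library, and together they held 16 of the 43 peaks. Among all 6591 genes of the table under 1 in the control, 16.4% had a peak and 2.49% had 3 or more, while 59.0% and 12.0% did among the 11656 genes at 1 or more. DCHS1, with 3 peaks, was at 0.05 in the control, in a bin where 6.41% of 3603 genes had a peak and 0.666% had 3 or more. FAT4, with 4 peaks, was at 0.19, in a bin where 28.4% of 2988 genes had a peak and 4.69% had 3 or more. These bins group genes by a value whose unit and scaling to gene length are unknown, and they take no account of coding length. As the family was chosen by peak number, the shares are a description and do not show that these members are unusually marked. The RNA-seq control and the immunoprecipitation are separate experiments on cells with normal METTL3, and the input library of the immunoprecipitation was not analysed here.

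Expression was then compared between knockdown and control. The deposited values carry no stated unit, and whether they are scaled to gene length is unknown. Differences below are therefore read between libraries, and the level of a gene is not read against that of another. METTL3 was at 8.35 and 4.99 in knockdown 1 and 2, against 20.81 in the control, or 40.1% and 24.0% of it, and it did not pass limma's test either (adjusted p = 1). The library of knockdown 2 stood apart from the others. Of 11 markers of embryonic kidney lines, all were highest in knockdown 2, with summed values of 14.35, 250.06 and 13.21 in knockdown 1, knockdown 2 and the control. CDKN2A was at 0, 144.68 and 0.04 in the same order, HOXB9 at 0.35, 53.12 and 0.03 and IRS4 at 0.04, 23.56 and 0.05. Together they made up most of the sum in knockdown 2. Only 6 of the 11 markers reached 1 there, against 2 in each other library. The share of all genes highest in knockdown 2 was not computed, and the list was drawn up with earlier results of these data known. Squamous markers summed to 3302.92, 2022.92 and 3359.74, with all 8 at 1 or more in each library. Keratins with high values dominate these sums. KRT13 went the other way, at 7.55, 29.21 and 7.35, and was the only 1 of the 8 highest in knockdown 2. Mesenchymal markers summed to 110.09, 322.1 and 104.89, of which VIM made up 88.05, 311.17 and 87.02. CDH2 went the other way, at 18.28, 5.93 and 14.24, and COL1A1 was at 3.6, 3.59 and 3.34. DCN was at 0, 0.01 and 0 and COL3A1 at 0.03 in each. Endothelial markers stayed under 1 in all 3 libraries, as did the leukocyte markers other than CD68 and the neural markers other than TUBB3, MAP2 and SYP. The part of these markers in the differences below was not tested. In bulk RNA, fewer cells of a type and less RNA per cell cannot be told apart.

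CELSR1, a core planar polarity protein of epithelia, was lower in both knockdown libraries by nearly the same amount. Its value was 11.75 in knockdown 1 and 11.06 in knockdown 2 (11.4 ± 0.488, SD, n = 2), against 16.74 in the control. Both knockdown libraries lie below the control, at 70.2% and 66.1% of it. The log2(value + 1) difference was -0.52 (SE 0.235), and it was -0.48 in knockdown 1 alone and -0.56 in knockdown 2 alone. Only 4.65% of the 12375 genes tested had a lower difference in knockdown 1 and 5.49% in knockdown 2. The difference did not pass limma's test over all genes (adjusted p = 1, unadjusted p = 0.0706).

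Both knockdown libraries also lay below the control for FAT2. It was at 0.89 in knockdown 1 and 1.03 in knockdown 2 (0.96 ± 0.099, SD, n = 2), against 1.75 in the control. The knockdown libraries lie close together at 50.9% and 58.9% of the control. Since adding 1 shrinks fold changes of genes at low values, differences on this scale are understated for FAT2. The log2(value + 1) difference was -0.49 (SE 0.422), with -0.54 and -0.44 for the separate libraries. With a pseudocount of 0.1 it was -0.81. In knockdown 1, 3.14% of genes tested had a lower difference, and in knockdown 2, 9.46%. FAT2 did not pass limma's test (adjusted p = 1).

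CELSR2, which acts beside CELSR1 and CELSR3 in planar polarity and in axon tracts of the mouse brain, differed less. It was at 4.89 and 4.49 in knockdown 1 and 2 (4.69 ± 0.283, SD, n = 2), against 5.56 in the control. Both libraries were below the control, at 87.9% and 80.8% of it. The log2 difference was -0.21 (SE 0.26; limma adjusted p = 1). Differences lower than its own were found in 27.8% of genes in knockdown 1 and 20.9% in knockdown 2.

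FAT1 and CELSR3 differed between the knockdown libraries. FAT1 was at 5.62 in knockdown 1 and 3.7 in knockdown 2, against 5.49 in the control. The library of knockdown 1 was thus at the control value and that of knockdown 2 at 67.4% of it, and knockdown 2 is the library with CDKN2A at 144.68. The log2 differences were 0.03 and -0.47, with a mean of -0.22 (SE 0.313; limma adjusted p = 1). CELSR3 was at 0.55 in knockdown 1 and 1.38 in knockdown 2, against 0.78 in the control. Genes entered the test when any library reached a value of 1, and CELSR3 did so through knockdown 2 alone. Its log2 differences were -0.20 and 0.42, with a mean of 0.11 (SE 0.515; limma adjusted p = 1), and the control lay between the knockdown libraries.

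**Figure D4:**
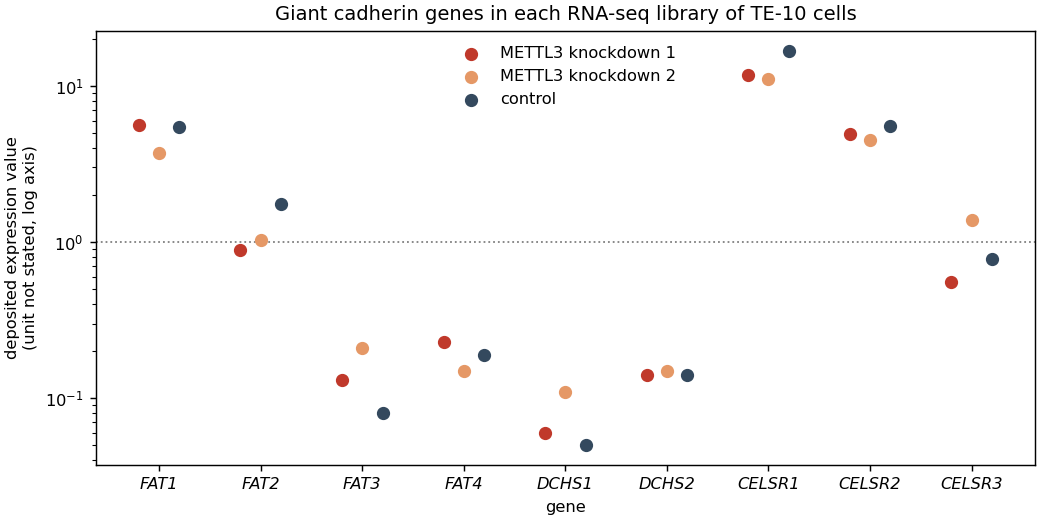
Deposited expression value (log axis, unit not stated) of the 9 giant cadherin genes in knockdown 1, knockdown 2 and the control, 1 point per library. For CELSR1, CELSR2 and FAT2 both knockdown points lie below the control point, and the dotted line marks a value of 1.

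The remaining 4 members were under 1 in every library and were not tested. FAT3 was at 0.13 in knockdown 1 and 0.21 in knockdown 2, against 0.08 in the control. FAT4 was at 0.23 and 0.15 in the knockdown libraries, against 0.19 in the control. DCHS1 was at 0.06 and 0.11, against 0.05 in the control, and DCHS2 at 0.14 and 0.15, against 0.14. All 4 stayed near 0, and differences of this size rest on the second decimal of the deposited values. Without the filter on low values, limma gave an adjusted p = 1 for all 9 members, with log2 differences from -0.001 to 0.115 for these 4.

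Across the family, no member passed limma's adjusted p of 0.05, and 0.0% of all 12375 genes tested did. At an unadjusted p under 0.05 there were 162 genes, none of them a member. The control lay above both knockdown libraries for 3 of the 5 tested members (FAT2, CELSR1 and CELSR2) and for 30.4% of all genes tested. It lay below both for none of the 5 and for 28.0% of all genes. The members were chosen with earlier results of these data known, so the shares are a description. Both knockdown libraries are set against the same control library, so a high or low control value moves both differences together. A 2-fold difference from the control was reached by no tested member in either library, while 0.646% of genes reached it in knockdown 1 and 4.62% in knockdown 2. The median log2 difference of the 5 tested members was -0.22 (-0.20 in knockdown 1 and -0.44 in knockdown 2), against 0.00 over all genes tested (-0.01 and 0.00). With 1 control library, a gene's own spread comes from the knockdown libraries alone, on 1 residual degree of freedom. In limma that spread is moderated towards a trend over all genes tested. The lack of calls does not show that values were equal.

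**Figure D5:**
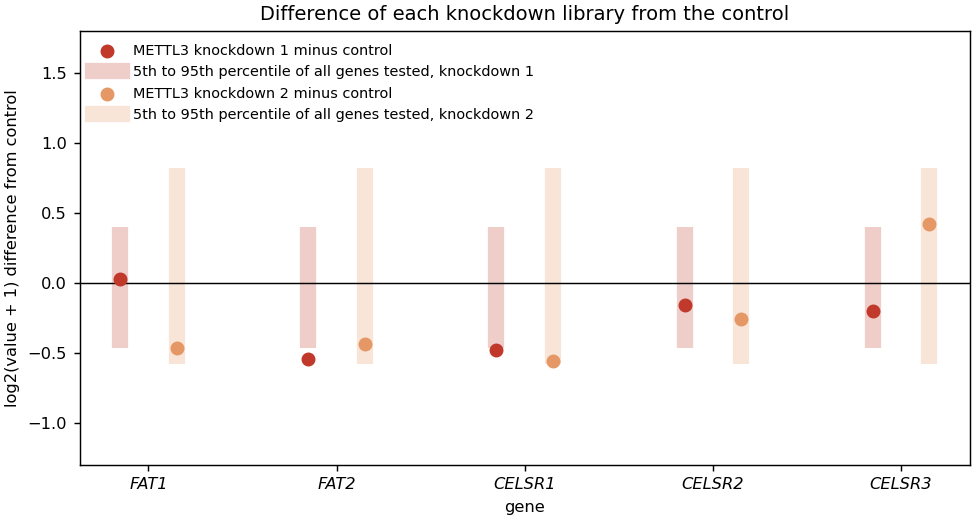
Difference in log2(value + 1) of knockdown 1 and knockdown 2 from the control for the 5 tested giant cadherins, with bands for the 5th to 95th percentile of all 12375 genes tested. CELSR1 and FAT2 lie just below the band in knockdown 1 and inside it in knockdown 2.

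Genes whose values resembled those of FAT1 and FAT2 were sought by Euclidean distance of log2(value + 1) over the 3 libraries. Nearest to FAT1 were CCNJL (distance 0.039; 5.66 and 3.62 in knockdown 1 and 2, against 5.36 in the control), NF1 (0.079) and RGP1 (0.089). Nearest to FAT2 were RPL3L (0.058; 0.87 and 1.11 in knockdown 1 and 2, against 1.75 in the control), RIMS3 (0.107) and GPR141 (0.121). With 3 libraries and no stated unit, this measures only a likeness of deposited values and of their pattern.

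Among 31 partners of the Fat and Hippo pathway, none passed limma's test, and none reached a 2-fold difference in the same direction with both hairpins, which 0.129% of all genes tested (16) did. The control lay above both libraries for 11 (35.5%) and below both for 4 (12.9%), against 30.4% and 28.0% of all genes tested. The list was chosen with earlier results of these data known, so its shares are a description. The median log2 difference was -0.04 (-0.06 in knockdown 1 and -0.16 in knockdown 2). Of the 4 genes with the control below both, AMOTL1 was under 1 in the control and passed the filter on low values through the knockdown libraries alone. TEAD2, a DNA-binding partner of the coactivator YAP1, was at 31.35 and 34.55 in the knockdown libraries, against 42.95 in the control. MOB1A, which activates the LATS kinases, was at 44.19 and 39.2, against 41.73 in the control. The LIM protein AJUBA, an inhibitor of LATS kinases, was at 63.92 in knockdown 1 and 34.34 in knockdown 2, against 37.32 in the control, and had 6 peaks. LATS2 was at 3.15 and 3.09, against 2.7 in the control, and had 7 peaks. FRMD6, an upstream Hippo component, was at 30.79 and 13.71, against 23.17 in the control, and had 4 peaks. Thus AJUBA and FRMD6 were above the control in knockdown 1 and below it in knockdown 2, whereas TEAD2 was below it in both.

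Planar polarity partners of the CELSR proteins showed no call either. Of 22 genes 20 were tested. The control lay above both knockdown libraries for 7 (35.0%) and below both for 6 (30.0%), near the 30.4% and 28.0% of all genes tested. This list, too, was chosen with earlier results of these data known. The median log2 difference was 0.01 (0.01 in knockdown 1 and -0.03 in knockdown 2). The filter on low values bears on these numbers, since 3 of the 20 genes passed it through knockdown 2 alone. They are ROR2 and WNT11, which are among the 6, and INTU, which is not. DVL1 and DVL3 carry the Frizzled signal inside the cell. DVL1 was at 42.98 and 43.53 in the knockdown libraries, against 54.81 in the control, and DVL3 at 78.43 and 61.53, against 77.53 in the control. The Wnt receptor RYK was at 62.69 and 50.56, against 66.71 in the control. None of these 3 had a peak. PRICKLE1, a cytoplasmic polarity protein, had 4 peaks and was at 1.6 and 1.14, against 1.03 in the control. WNT5B, a ligand, had 4 peaks and was at 1.41 and 2.23, against 1.75 in the control. WDPCP, a polarity effector of cilia, had 3 peaks and was at 2.59 and 2.77, against 3.12 in the control.

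Other cadherins were compared as the nearest relatives. Of 41 listed, 40 were in the table and 20 were tested, with no call in limma. The control lay above both knockdown libraries for 11 (55.0%) and below both for 3 (15.0%), against 30.4% and 28.0% of all genes tested. As this list was chosen with earlier results of these data known, its shares are a description. The median log2 difference was -0.32, with -0.02 in knockdown 1 and -0.54 in knockdown 2. PCDH10, among the 3 with the control below both, passed the filter through knockdown 2 alone, and without the filter the median of the list was -0.05. DSG2, a desmosomal cadherin, was at 65.58 and 58.09 in the knockdown libraries, against 83.46 in the control. P-cadherin CDH3 was at 70.34 and 46.74, against 88.54 in the control, and E-cadherin CDH1 at 50.08 and 39.58, against 51.65. CLSTN1, a neuronal cadherin-repeat protein of the calsyntenin family, was at 48.34 and 46.17, against 65.93 in the control. PCDH19 had 4 peaks, like FAT4, and was at 1.22 and 1.17, against 2.38 in the control, at 51.3% and 49.2% of it. PCDH1, also with 4 peaks, was at 1.32 and 1.64, against 1.2 in the control. Squamous markers, which include the desmosomal cadherin DSG3 of this list, summed to 2022.92 in knockdown 2, against 3359.74 in the control. Among them KRT13 went the other way, at 29.21 in knockdown 2, against 7.35 in the control. The part of the squamous markers in the values of knockdown 2 was not tested.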

How the data were processed

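Expression was measured in 2 METTL3 knockdown libraries and 1 control library, and m6A peaks in TE-10 cells with normal METTL3. The submitters' processing notes name TopHat2 and HTSeq for all samples, MACS2 for the immunoprecipitation and build hg38. No version or setting of these tools is stated in the sources used here. The deposited table holds an expression signal per gene with 2 decimals, whose unit the authors did not state per the file headers. Columns sum to 617840.4 (knockdown 1), 627152 (knockdown 2) and 608291 (control). Depth is therefore unknown. Whether the authors pooled the immunoprecipitations before calling the deposited peaks is not stated.

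Genes reaching 1 in any library were kept (12375), log2(value + 1) was taken, and the knockdown libraries were set against the control in limma 3.58.1 (R 4.3.3) with a mean-variance trend and Benjamini-Hochberg adjustment at 0.05. Each SE given is from limma's moderated variance. The procedure was also run on simulated data, in which only genes with higher values were changed, all upward and by at least 2-fold. That run does not bear on differences as small as those of the members. Other work used Python 3.11.15, pandas 2.3.3, scipy 1.17.1 and matplotlib 3.10.9. Groups of neighbouring peaks allow gaps of at most 5000 bases. The members, lists and marker genes were chosen with earlier results of these data known. Genes named are all members and, of each list, the 3 with the highest mean value, the 3 with most peaks and any at least 2-fold different in both libraries in the same direction. Markers and genes of like peak number or pattern are named besides, and older symbols were matched through RefSeq synonyms. Alternatives covered the pseudocount, the filter, scaling, the trend, each knockdown library left out and the peak classes. Planned values of peaks per kilobase of coding sequence were not computed, as no table of coding lengths was used here.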

Additional observations from a re-analysis of the deposited data

How the results depend on the processing

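No member passed limma's threshold under any of the 7 other settings of the fit, and no gene did, with 123 to 444 genes at an unadjusted p under 0.05. With 1 knockdown library left out there is no test, and the count of genes at least 2-fold different ranged from 80 to 572. FAT1 (0.03) and CELSR3 (-0.20) turned sign when knockdown 2 was left out, and no other tested member did under any alternative. The number of tested members with the control above was 4 with either knockdown library alone and 1 with a mean of at least 5, where CELSR1 is the only member left. The median of the Fat and Hippo list was -0.122 with a mean of at least 5 and ranged from -0.159 to -0.055 with a library left out. That of the planar polarity list was 0.041 without the filter, -0.172 with a mean of at least 5 and -0.023 with quantile normalization, and ranged from -0.034 to 0.006 with a library left out. That of the other cadherins, -0.315, was -0.05 without the filter, where genes near 0 enter, and ranged from -0.537 to -0.017 with a library left out. The cause was not tested. The peak count was 39 in exons and untranslated regions and 43 with peaks within 100 bases merged. Peaks per coding or transcript length were not run. No paired analysis was possible because both knockdown libraries share a single control library.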

Other observations

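Of the 31 Fat and Hippo genes, 10 (32.3%) were above the control in knockdown 1 and below it in knockdown 2, a pattern shown by 19.1% of all genes tested. The list was chosen with earlier results of these data known. The examples below were picked after their values were seen, because the knockdown libraries differed. CCN1, a secreted matrix protein listed under its older symbol CYR61, was at 33.67 in knockdown 1 and 13.47 in knockdown 2, against 21.25 in the control. CCN2, listed as CTGF, was at 7.85 and 3.69, against 6.14 in the control. ANKRD1 was at 8.63 and 3.04, against 3.35 in the control, and the receptor kinase AXL at 20.96 and 7.46, against 19.36. AJUBA and FRMD6 are also among the 10, whereas LATS2, FJX1 and AMOT did not share this pattern. LATS2 was at 3.15 and 3.09, against 2.7 in the control, and FJX1, the human relative of Four-jointed, was at 5.62 and 6.86, against 6.41 in the control. The scaffold AMOT was at 0.97 in knockdown 1 and 12.65 in knockdown 2, against 1.14 in the control. Knockdown 2 is the library in which CDKN2A was at 144.68 and all 11 markers of embryonic kidney lines were highest, though only 6 of them reached 1 in it. Those markers were listed with earlier results of these data known, and the share of all genes highest in knockdown 2 was not computed. The part of these markers in the values above was not tested.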
